A study of Mus musculus with 8 samples.

Results

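The measurement described here is a difference of 2 differences in macrophages grown from mouse bone marrow, read on 8 arrays with 2 dyes each. For each gene, the tamoxifen effect in Cre control cells was subtracted from the tamoxifen effect in Thoc5 flox cells, within each of 2 biological experiments, and the 2 values were averaged. All 8 of the 8 arrays of the series enter it, 4 from each genotype. The groups were ERT2 Cre control cells without tamoxifen, the same cells with tamoxifen, ERT2 Cre Thoc5 (flox/flox) cells without tamoxifen and those cells with tamoxifen, with 2 arrays each, 1 from each experiment. The genetic background was C57BL/6 x B6:129 Ola in every group. All cells carried the ERT2 Cre, a Cre recombinase that tamoxifen activates, so the control cells with tamoxifen hold both the drug and an active Cre but no floxed gene. Which promoter drives the Cre is not given in the sources used here, nor is the age of the mice. Each array set cytoplasmic RNA of day 3 under CSF-1 against RNA of day 0, taken from the matching genotype and experiment and shared by the arrays with and without tamoxifen.

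Thoc5 encodes a subunit of the THO complex, a part of TREX, which couples transcription to the export of mRNA from the nucleus. CSF-1 is the growth factor that drives bone marrow progenitors to become macrophages. During this step cells build up lysosomes and take on phagocytic receptors. A gene that responds to tamoxifen or to active Cre alike in both genotypes has a difference of 0, and a gene that responds only where the floxed Thoc5 can be removed has a difference equal to its effect in flox cells. A gene that moves in the control cells and not, or the other way, in the flox cells also has a difference.

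The level of RNA was read as the log2 ratio of day 3 over day 0 on each array. In each channel, 51.3% to 58.1% of the probes passed the scanner's background test, and saturation was seen at 0 spots. The 8 marker genes of macrophages that were examined, among them Csf1r, Adgre1 and Cd68, were above background on all 8 arrays at day 3. Values are log2 differences, flox minus control, and ± gives limma's standard error, from 2 arrays per group. A gene is called at a Benjamini-Hochberg adjusted p below 0.05 over the 17988 genes tested. The number of arrays limits the precision of every value, and 2 against 2 differences cannot go below a two-sided exact permutation p of 0.333, so the tests rest on the spread pooled over genes by limma. In RNA from whole cultures, fewer cells of a type and less RNA per cell cannot be told apart. The RNA of day 3 was cytoplasmic and nuclear RNA was not read, so a change in export from the nucleus was not tested.

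Windows of 250 bases before the transcription start are printed for 3 mitotic genes that were lower in the difference and for 2 lysosomal genes that were higher, since the lists of mitotic and lysosomal genes are described at length. They are from RefSeq on GRCm38.p6, 5′ to 3′ on the strand of the gene. In the first 3, capitals mark TTTGAA, the letters of the cell cycle homology region of mitotic promoters, and CCAAT, the CCAAT box, on either strand. In the last 2, capitals mark CACGTG, an E-box, the kind of site that MiT/TFE factors bind in lysosomal promoters. The windows are Ube2c at chr2:164769679-164769928, Ccnb2 at chr9:70421555-70421804, Cdc20 at chr4:118437344-118437593, Atp6v1a at chr16:44139260-44139509 and Mcoln2 at chr3:146149924-146150173.
Ube2c: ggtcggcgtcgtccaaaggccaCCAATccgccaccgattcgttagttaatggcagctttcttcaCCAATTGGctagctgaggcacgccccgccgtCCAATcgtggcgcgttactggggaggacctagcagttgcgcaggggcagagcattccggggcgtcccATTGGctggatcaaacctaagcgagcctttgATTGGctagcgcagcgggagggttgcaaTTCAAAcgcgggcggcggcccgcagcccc
Ccnb2: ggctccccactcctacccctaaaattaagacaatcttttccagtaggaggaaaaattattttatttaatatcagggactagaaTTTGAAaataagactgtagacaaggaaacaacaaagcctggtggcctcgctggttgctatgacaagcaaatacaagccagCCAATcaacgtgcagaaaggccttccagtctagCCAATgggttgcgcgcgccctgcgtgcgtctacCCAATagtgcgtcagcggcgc
Cdc20: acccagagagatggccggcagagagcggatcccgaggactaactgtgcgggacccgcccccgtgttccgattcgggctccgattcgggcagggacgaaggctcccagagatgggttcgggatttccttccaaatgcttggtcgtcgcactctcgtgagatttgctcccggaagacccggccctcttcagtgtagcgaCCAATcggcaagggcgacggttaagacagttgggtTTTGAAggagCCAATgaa
Atp6v1a: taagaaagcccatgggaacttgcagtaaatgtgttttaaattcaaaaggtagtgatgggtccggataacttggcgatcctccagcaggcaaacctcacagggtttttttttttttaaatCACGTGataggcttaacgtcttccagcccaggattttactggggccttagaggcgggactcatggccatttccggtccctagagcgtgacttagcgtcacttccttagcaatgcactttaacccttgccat
Mcoln2: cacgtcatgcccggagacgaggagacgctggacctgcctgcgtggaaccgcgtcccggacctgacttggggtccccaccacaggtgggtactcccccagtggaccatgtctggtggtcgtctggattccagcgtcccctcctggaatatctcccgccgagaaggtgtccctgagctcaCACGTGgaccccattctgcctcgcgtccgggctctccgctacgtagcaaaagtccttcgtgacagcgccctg

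The window of Ube2c holds 6 matches to CCAAT, of which 2 overlap each other on opposite strands, and 1 match to TTTGAA that starts 29 bases before the transcript. Ccnb2 has 3 matches to CCAAT and Cdc20 has 2, and each has 1 match to TTTGAA. This match starts 18 bases before the transcript in Cdc20. In Ccnb2 it starts 167 bases before, upstream of all 3 CCAAT matches. Over the 34 of 41 mitotic genes with an entry in the table, TTTGAA was present in 35.3% and CCAAT in 76.5%, against 13.6% and 40.1% of the 11049 tested genes with an entry. Over all 32851 windows of this length the shares were 16.0% and 33.8%. Of the 36 DNA replication genes with an entry, 13.9% had the first of these motifs and 61.1% the CCAAT box. CACGTG was present in 26.8% of the 41 lysosomal hydrolase, pump and membrane genes with an entry, in 26.7% of the 15 mucolipin and MiT/TFE genes and in 45.5% of the 11 cathepsin genes, against 9.5% of the tested genes and 6.0% of all windows. TGAGTCA, the letters of an AP-1 site, was in 8.3% of 72 genes called higher and 3.0% of 67 called lower. These are 6 and 2 genes, and the share of the tested genes was 4.2%. Of the same genes called higher and lower, TTTGAA was in 12.5% and 23.9%, CCAAT in 41.7% and 46.3% and CACGTG in 11.1% and 4.5%. Both strands were searched, genes with several windows count once, and a match is a description of letters, not of binding.

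The difference was called for 204 of 17988 genes, 1.13% of those tested, with 98 higher (0.545%) and 106 lower (0.589%). Their absolute differences ran from 0.86 to 4.04, with a median of 1.41, and 180 of the 204 were at least 2-fold, 86 higher and 94 lower. All 204 had the same sign in both experiments, which limma's test favours by its construction, against 11486 of all 17988 genes. Across all genes tested, the differences of the 2 experiments correlated at r = 0.55, where genes are not independent replicates. The median difference over all genes was -0.01. The tamoxifen effect itself was called for 1621 genes in flox cells (9.01% of 17990, with 4.86% higher and 4.15% lower) and for 0 genes in control cells (0% of 17988), where limma left 997 genes at an unadjusted p below 0.05. These 3 comparisons share arrays. The standard error of the difference is larger, with a median of 0.18 against 0.13 for the effect in 1 genotype.

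The count rests on the whole set of arrays. Without the experiment term, which takes up the shared replicate number, dye direction and slide, 22 genes were called, all of them among the 204. With 1 array left out, the count of limma's calls was 0 without either control array with tamoxifen, either flox array without tamoxifen or either flox array with tamoxifen, with 1880 to 2275 genes at an unadjusted p below 0.05. It was 272 without the control array without tamoxifen of experiment 1, and 116 without that of experiment 2. In each of these 8 fits all 204 genes kept their sign. The fits reuse the arrays that chose the genes, so this is a description of them and no independent support.

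**Figure D1:**
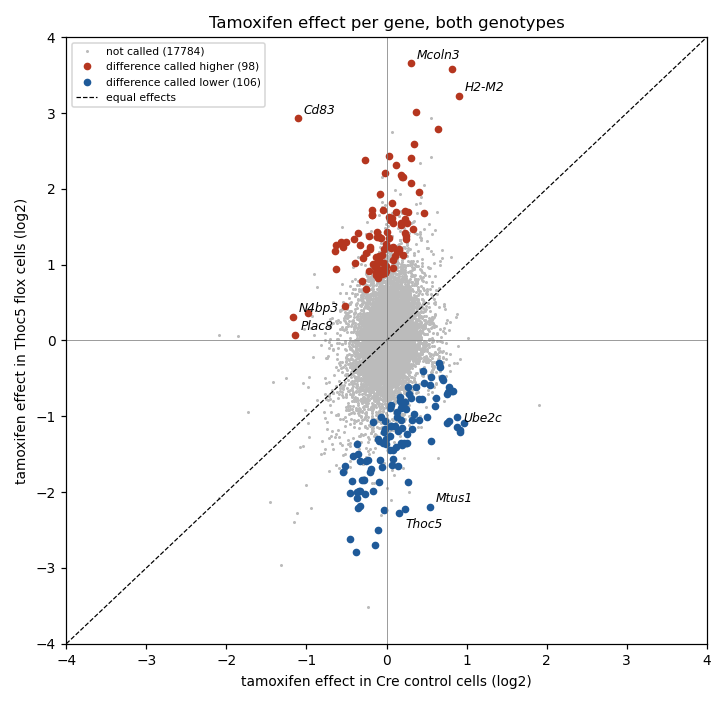
Tamoxifen effect in Cre control cells (x axis, log2) against the effect in Thoc5 flox cells (y axis, log2), each point 1 gene and the mean of 2 experiments, with the 98 genes called higher in red, the 106 called lower in blue and the dashed line at equal effects. The called genes spread mostly along the flox axis, while Cd83, N4bp3 and Plac8 lie to the left of 0 and Ube2c to the right.

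In 113 of the 204 the effect in control cells was below 0.25 in size, and in 39 it was at least 0.5. The 2 effects had opposite signs in 122 genes, and the effect was larger in control cells than in flox cells in 15, of which 11 were lower and 4 higher in the difference. The median size of the effect over the 204 genes was 1.27 in flox cells and 0.22 in control cells. Both flox arrays with tamoxifen lay above all 6 other arrays in 88 of the 98 genes called higher, against 13.8% of all genes, and below all 6 in 78 of the 106 called lower, against 11.8%. In the remaining 10 and 28 genes they lay among the other arrays. Without tamoxifen, flox cells had lower ratios than control cells in 88 of the 98 higher genes, with a median gap of -0.40, and higher ratios in 80 of the 106 lower genes, with a median gap of 0.31. These positions use the arrays that chose the genes and are a description of them.

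Thoc5, the floxed gene, was lower in the difference by 2.43 on the log2 scale. Its probe covers bases 4828807 to 4828866 of chromosome 11 (mm9). The ratios of day 3 over day 0 were -0.40 and -0.28 in untreated control cells, -0.21 and -0.15 in treated ones, -0.74 and -0.77 in flox cells without and -3.04 and -3.02 in flox cells with tamoxifen. The flox arrays with tamoxifen stand far below the 6 others, which lie between -0.77 and -0.15. The tamoxifen effect was -2.29 and -2.25 in flox cells and 0.19 and 0.13 in control cells, giving a difference of -2.48 in experiment 1 and -2.38 in experiment 2. The fitted difference was -2.43 ± 0.14 (95% interval -2.76 to -2.10), a 5.38-fold lower level, with a limma adjusted p of 0.00907. Over the alternatives the value stayed between -2.57 and -2.25, and the adjusted p ran up to 0.129. It passed the threshold without either control array without tamoxifen and missed it without any 1 of the 6 other arrays.

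Of the 30 other genes of TREX and mRNA export that were measured, 0 were called by limma. At an unadjusted limma p below 0.05, 0 were higher and 0 lower, against 7.53% and 7.86% of all genes. The 30 differences ran from -0.44 to 0.46, with a median of -0.11. Thoc1, another subunit of the THO complex, had -0.34 ± 0.15 (limma adjusted p = 0.358). Ddx39b, the RNA helicase of TREX, had 0.34 ± 0.18 (limma adjusted p = 0.439).

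Cd83, a surface protein of activated antigen-presenting cells, had the highest difference of all genes. Its ratios were 2.18 and 1.77 in untreated control cells, 1.08 and 0.65 with it, -0.36 and -0.29 in flox cells without and 2.61 and 2.61 in flox cells with tamoxifen. So the control arrays were lower with tamoxifen and the flox arrays higher, and no 2 groups overlap. The fitted difference was 4.04 ± 0.22, a 16.5-fold change (limma adjusted p = 0.00907), made of 2.93 in flox cells and -1.11 in control cells. The 16 genes of the list of CD83 and costimulatory ligands had a median of 0.10. Called higher were 2, against 0.545% of all genes, and 0 were lower, against 0.589%. The other was Slamf7, a receptor of the SLAM family (1.84 ± 0.26), while Icosl, the ligand of ICOS, had -1.07 ± 0.23 and did not pass (limma adjusted p = 0.0975).

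Mcoln3, a mucolipin cation channel of endosomes and lysosomes, had the next highest difference. Its ratios were -1.20 and -0.68 in untreated control cells, -0.76 and -0.52 with it, -2.18 and -1.31 in flox cells without and 1.53 and 2.29 with tamoxifen. Only the flox arrays with tamoxifen were above 0. The difference was 3.36 ± 0.23 (10.2-fold, limma adjusted p = 0.00907), nearly all of it from the flox cells, where the effect was 3.66 against 0.30 in control cells. A second probe of the gene gave 2.05.

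**Figure D2:**
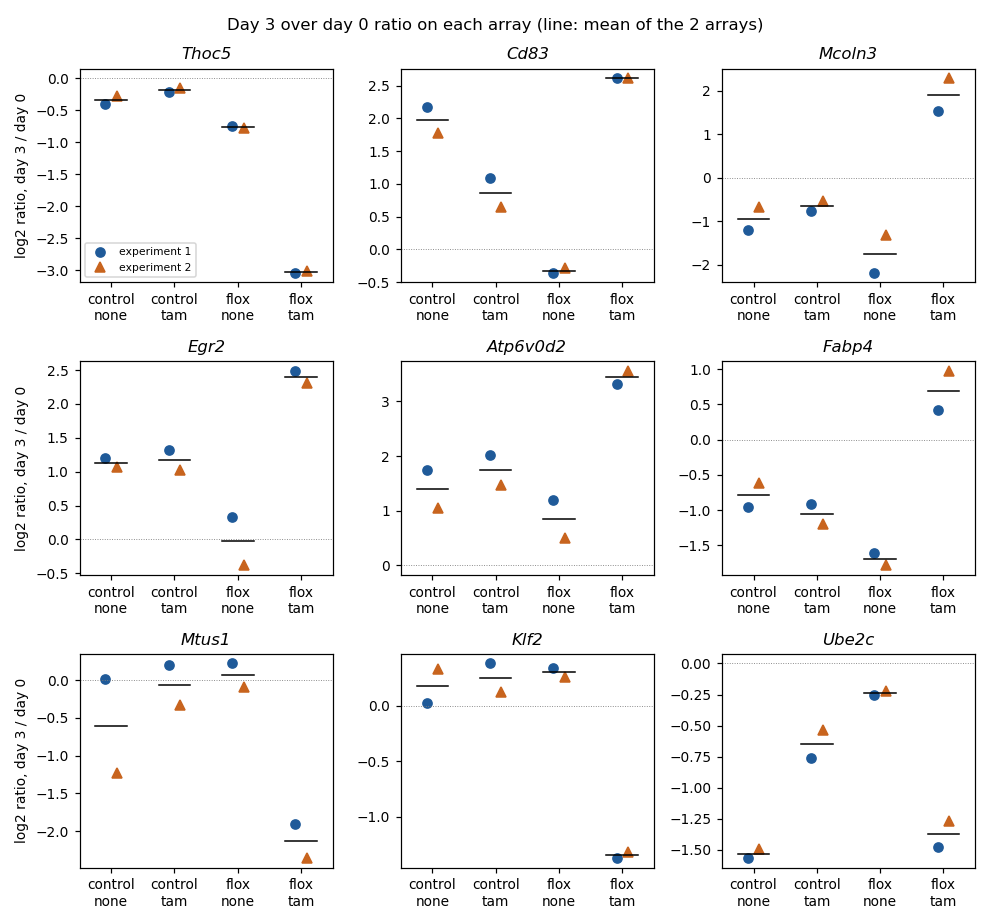
Log2 ratio of day 3 over day 0 (y axis) on each of the 8 arrays for 9 genes, by group (x axis), with circles for experiment 1, triangles for experiment 2 and lines at the mean of 2 arrays. Thoc5 and Klf2 are low and Mcoln3, Egr2, Atp6v0d2 and Fabp4 high on the flox arrays with tamoxifen alone, while Cd83 and Ube2c also differ between the control groups.

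Among the 15 largest higher genes were regulators and receptors with little or no change in control cells. Egr2, a zinc finger transcription factor of the immediate early class, had ratios of 1.20 and 1.07 in control cells without tamoxifen, 1.32 and 1.02 with it, 0.33 and -0.38 in flox cells without and 2.49 and 2.31 with tamoxifen. The flox cells thus passed from the lowest to the highest of the 4 groups, with a difference of 2.39 ± 0.22 (limma adjusted p = 0.0186) and an effect of 0.04 in control cells. Clec7a, the beta-glucan receptor dectin-1, followed the same order of groups, with -0.31 and -0.40 in flox cells without tamoxifen, 1.43 and 1.73 with it, and 0.96 to 1.22 on the 4 control arrays. Its difference was 2.02 ± 0.18 (limma adjusted p = 0.0161).

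Fabp4, a fatty acid binding protein of macrophages and fat cells, had ratios of -0.96 and -0.62 in control cells without tamoxifen, -0.92 and -1.19 with it, -1.60 and -1.78 in flox cells without and 0.42 and 0.97 with tamoxifen. Its difference was 2.65 ± 0.30 (limma adjusted p = 0.0271), with 1.98 in experiment 1 and 3.33 in experiment 2. Pparg, the nuclear receptor that activates Fabp4, was higher by 1.00 ± 0.14 (limma adjusted p = 0.043). These 2 were the called genes of the 21 of PPAR-gamma and fatty acid handling, of which 0 were lower and whose median was 0.29. Over all genes 0.545% were called higher and 0.589% lower. Fabp5, a related binding protein, had 1.19 ± 0.24 and Acaa2, an enzyme of fatty acid oxidation, 0.58 ± 0.15, and neither passed.

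Others of the 15 were of mixed kind. Dio2, which activates thyroid hormone, had a difference of 2.23 ± 0.30, Fam20c, a kinase of secreted proteins, 2.10 ± 0.15, and Anpep, the membrane aminopeptidase CD13, 1.97 ± 0.26. Pianp had 2.14 ± 0.23, Mctp1 2.00 ± 0.28, and the less studied C77080 and Gm14461 had 2.77 ± 0.18 and 2.64 ± 0.16. A second probe of Mctp1, at 0.14 with an unadjusted limma p of 0.565, did not follow the first. C77080 also had one of the larger effects in control cells, 0.82, in the same direction as the 3.59 in flox cells.

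H2-M2, a non-classical MHC class I gene, had a difference of 2.32 ± 0.21 (limma adjusted p = 0.0186). Its ratios were 0.00 and 0.19 in untreated control cells, 1.17 and 0.83 with it, 0.27 and 0.37 in flox cells without and 3.64 and 3.44 with tamoxifen. It was above background on 1 of the 2 control arrays without tamoxifen at day 3, so the control effect of 0.90 is less certain than that of the flox cells. It was the 1 gene called among 24 of the MHC class I pathway, against 1.13% of all genes. The median of the 24 was 0.17. H2-D1, a classical class I heavy chain, had 0.72 ± 0.17 and H2-Q7, of the class Ib family, 0.90 ± 0.21. Neither passed, and both share sequence with other class I genes, so their probes may read more than 1 gene.

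Atp6v0d2, a subunit of the proton pump that macrophages and osteoclasts use to acidify lysosomes and the resorption space, had a difference of 2.24 ± 0.33 (limma adjusted p = 0.0438). Its ratios were 1.75 and 1.04 in untreated control cells, 2.02 and 1.47 with it, 1.20 and 0.50 in flox cells without and 3.32 and 3.56 with tamoxifen. All 8 ratios are above 0, with those of the flox arrays with tamoxifen the highest, and its second probe gave 2.22.

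Most lysosomal genes had a difference above 0, and few passed the test. Of 51 hydrolases, pump subunits and membrane proteins, 48 had a difference above 0, with a median of 0.42 (0.46 and 0.37 in the 2 experiments), against 8600 of 17988 genes and a median of -0.01 over all. Their differences ran from -1.51 to 2.24, and their median from the day 3 channel alone was 0.40. Called higher were 3 of the 51, Atp6v0d2, Atp6v1a and Arsb, and 1 was called lower. Over all genes the shares called were 0.545% and 0.589%. At an unadjusted limma p below 0.05, 25 were higher and 1 lower, against 7.53% higher and 7.86% lower over all genes. The median effect was 0.38 in flox cells and 0.02 in control cells, and in flox cells 18 of the 51 were called higher, against 4.86% of all genes.

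Atp6v1a, the catalytic subunit of the pump, had ratios of -0.76 and -0.29 in control cells without tamoxifen, -0.92 and -0.42 with it, -0.63 and -0.50 in flox cells without and 0.21 and 0.60 with tamoxifen. Its difference was 1.12 ± 0.17 (limma adjusted p = 0.0479). Arsb, the sulfatase arylsulfatase B, had 0.92 ± 0.14 (limma adjusted p = 0.0492), and its second probe gave 0.28. Acp5, tartrate-resistant acid phosphatase, went the other way. Its ratios lay between 1.11 and 1.77 on the 6 other arrays and at 0.09 and -0.09 on the flox arrays with tamoxifen, a difference of -1.51 ± 0.19 (limma adjusted p = 0.0318).

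Cathepsins, the lysosomal proteases, and their inhibitors had a median of 0.51 over 15 genes, 13 of them above 0. Of the 15, 1 was called higher, against 0.545% of all genes. Their summed day 0 level was 20.548 and 20.752 on flox arrays with tamoxifen and 20.901 and 20.913 without, although this RNA is shared. In control cells it was 20.874 and 20.815 with and 20.882 and 20.811 without. From the day 3 channel alone the median difference was 0.355. The cause of the day 0 gap was not tested. Ctsb was called higher, at 1.15 ± 0.15 (limma adjusted p = 0.0342), with ratios of 0.59 and 0.11 on the flox arrays with tamoxifen and between -0.90 and -0.28 on the 6 others. Over the alternatives its difference ran from 0.60 to 1.23. Of the 15 genes, 0 were called from the processed signals and 6 higher with the shared day 0 RNA as a fixed block. Ctsd at 1.04 ± 0.17 and the inhibitor Cstb at 1.03 ± 0.17 missed the threshold, with limma adjusted p values of 0.0551 and 0.0557. Ctsk, the collagen-degrading cathepsin of osteoclasts, had 1.58 ± 0.32, with 1.00 and 2.15 in the 2 experiments, and did not pass (limma adjusted p = 0.0822).

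The 16 mucolipin channels and MiT/TFE factors with their regulators had a median of 0.60, with 15 above 0. Called higher were 4, against 0.545% of all genes, and 0 were lower. The summed day 0 level of the list was 18.28 and 18.25 on flox arrays with tamoxifen and 18.59 and 18.42 without. From the day 3 channel alone the median of the list was 0.64. Fnip2, a partner of folliculin in the control of the MiT/TFE factors, had 1.88 ± 0.21, with 1.25 in flox cells and -0.63 in control cells. Mcoln2, the mucolipin encoded next to Mcoln3, had 1.56 ± 0.23. Gpnmb, a melanosomal and lysosomal membrane protein that MiT/TFE factors activate, had 1.48 ± 0.23 and sat at the edge of the threshold (limma adjusted p = 0.04997). The list of 19 osteoclast-type and fusion genes, which shares Atp6v0d2, Acp5 and Ctsk with the lists above, had a median of 0.28 with 1 gene higher and 1 lower. Its member Clcn7, the lysosomal chloride exchanger, had 0.85 ± 0.16 (limma adjusted p = 0.069).

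**Figure D3:**
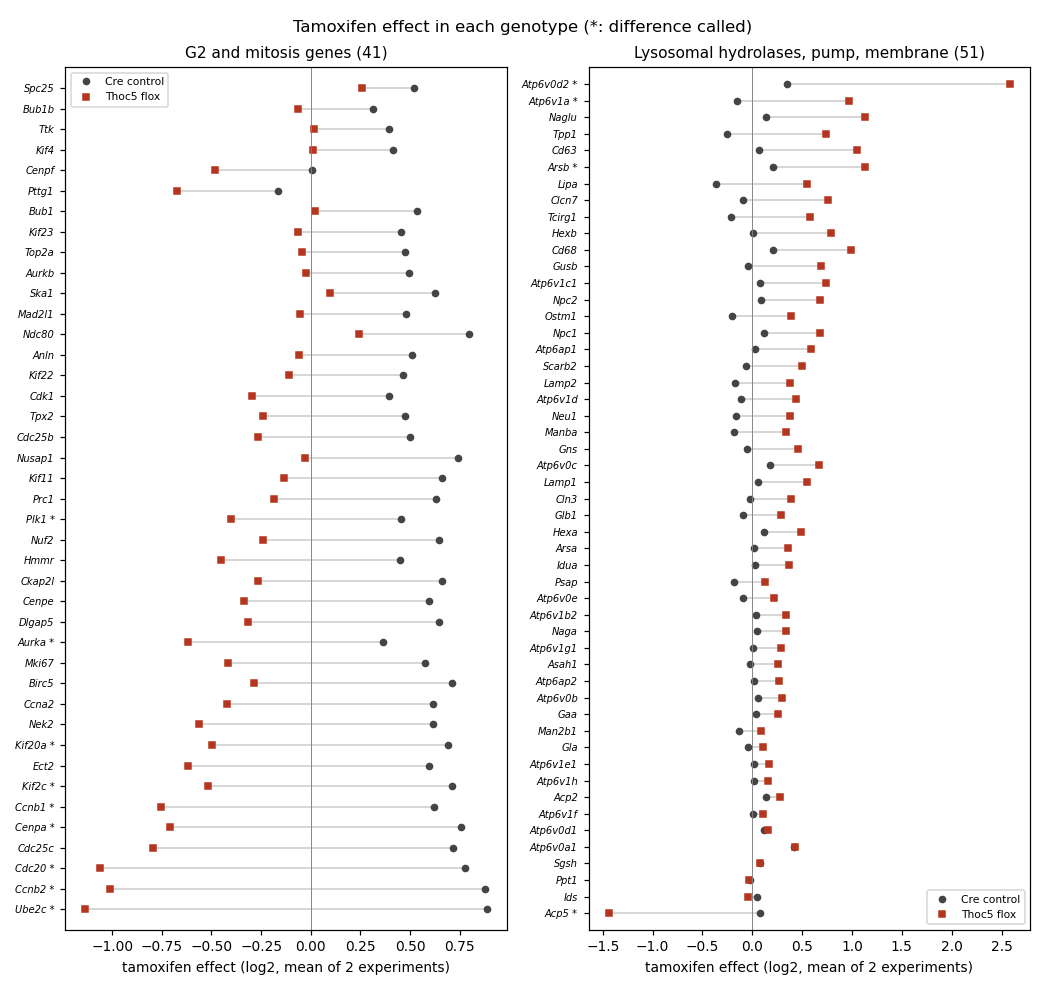
Tamoxifen effect (x axis, log2, mean of 2 experiments) of each of 41 G2 and mitosis genes and 51 lysosomal genes (y axis, ordered by the difference), with black circles for Cre control cells, red squares for Thoc5 flox cells and an asterisk where the difference was called. In every mitosis gene the flox square lies to the left of the control circle, while in 48 of the 51 lysosomal genes it lies to the right.

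The G2 and mitosis genes formed the clearest case in which the control cells carried much of the difference. All 41 measured genes had a difference below 0, in each of the 2 experiments, with a median of -0.82 (-0.89 and -0.80). Called lower were 9, Ube2c, Ccnb2, Cdc20, Cenpa, Kif2c, Aurka, Kif20a, Ccnb1 and Plk1, and 0 were called higher. Over all genes 0.589% were called lower and 0.545% higher. At an unadjusted limma p below 0.05, 31 of the 41 were lower, against 7.86% of all genes. The median tamoxifen effect was 0.59 in control cells and -0.29 in flox cells. In control cells 40 of the 41 had an effect above 0 although 0 passed limma's test there, and in flox cells 35 were below 0 and 9 were called lower, against 4.15% of all genes.

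The median ratio of day 3 over day 0 for the 41 genes was -1.65 and -1.66 in control cells without tamoxifen, -1.133 and -0.997 with it, -0.683 and -1.003 in flox cells without and -1.21 and -1.15 with tamoxifen. All 8 values are below 0. The control cells without tamoxifen were the lowest group, and in 31 of the 41 genes both of their arrays lay below the 6 others. The flox arrays with tamoxifen lay below all others in 2 genes and above all others in 2. With tamoxifen the 2 genotypes lay close together, and without it they lay further apart. Under the alternatives the median stayed between -0.95 and -0.69, with the same sign in every gene measured, while the count called ranged from 0 to 23.

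Ube2c, the ubiquitin-conjugating enzyme of the anaphase-promoting complex, had ratios of -1.57 and -1.50 in control cells without tamoxifen, -0.76 and -0.53 with it, -0.26 and -0.23 in flox cells without and -1.48 and -1.27 with tamoxifen. Its difference was -2.02 ± 0.15 (limma adjusted p = 0.00907), made of -1.14 in flox cells and 0.89 in control cells, and its second probe gave -2.06. With tamoxifen the control arrays were higher and the flox arrays lower than without, with no overlap between the 2 groups of either genotype. Ccnb2, cyclin B2, had -1.89 ± 0.18, Cdc20, the activator of the same complex, -1.84 ± 0.20, and Cenpa, the centromeric histone, -1.47 ± 0.17. Cdkn3, a phosphatase of cyclin-dependent kinases, and Sapcd2, which helps to orient the spindle, were among the 15 largest lower genes, at -2.05 ± 0.19 and -2.10 ± 0.14.

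Of the 8 called genes with the largest effect in control cells among those where it exceeded that in flox cells, 5 were lower in the difference. Cep55, which acts in the last step of cell division, had 0.78 in control cells and -0.62 in flox cells. Troap, a spindle protein, had 0.77 and -0.68, and Cenpa 0.76 and -0.71. The difference of Cep55 was -1.40, and -0.66 by its second probe. Gm5593 and Gm4870, named by model only, had 0.83 and 0.82 in control cells and -0.67 in flox cells each. The 3 higher genes had effects of 0.07 to 0.36 in flox cells. Plac8, a gene of monocytes and progenitors, had ratios of -2.75 and -3.23 in control cells without tamoxifen, -3.77 and -4.49 with it, -4.24 and -4.66 in flox cells without and -4.11 and -4.63 with tamoxifen. Its difference was 1.22 ± 0.16 (limma adjusted p = 0.034), and 0.76 by a second probe. Its effect was -1.15 in control cells and 0.07 in flox cells. N4bp3 had -1.17 and 0.32, and Gm6377 -0.98 and 0.36. None of these 8 effects in control cells passed limma's test on its own.

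Of 45 genes of DNA replication measured, 0 were called by limma. At an unadjusted limma p below 0.05, 4 were higher and 3 lower, against 7.53% and 7.86% of all genes. The median of the 45 was -0.05, with -0.31 in experiment 1 and 0.14 in experiment 2. Mcm10, which loads the replication machinery, had -0.80 ± 0.16 (limma adjusted p = 0.0787) and Pola1, the catalytic subunit of DNA polymerase alpha, 0.84 ± 0.24 (limma adjusted p = 0.174). Of 30 p53 target genes 1 was called, against 1.13% of all genes. It was Gtse1, a G2 and S phase protein that binds microtubules, at -0.95 ± 0.14. Cdkn1a, the cell cycle inhibitor p21, had -0.81 ± 0.17, while Plk2 had 1.64 ± 0.31 and Gadd45a 1.36 ± 0.26. The median of the p53 list was -0.13.

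Mtus1, a microtubule-associated protein, had the lowest difference of all called genes. Its ratios were 0.02 and -1.24 in untreated control cells, 0.20 and -0.33 with it, 0.22 and -0.10 in flox cells without and -1.91 and -2.36 with tamoxifen. The control arrays without tamoxifen were apart by more than 1 log2 unit, and the difference was -2.31 in experiment 1 and -3.17 in experiment 2. The fitted value was -2.74 ± 0.32 (limma adjusted p = 0.0271). Raver2, an RNA-binding protein of the ribonucleoprotein family, was steadier. It had ratios between 2.93 and 3.49 on the 6 other arrays and 0.56 and 0.52 on the flox arrays with tamoxifen, a difference of -2.55 ± 0.20 (limma adjusted p = 0.013).

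Several others of the largest lower set had ratios above 0 on the 6 other arrays and lower ones on the flox arrays with tamoxifen. Nrxn2, a neurexin, had ratios between 2.62 and 3.58 on 6 arrays and 0.00 and 0.11 on the last pair, a difference of -2.41 ± 0.37 (limma adjusted p = 0.0455), although its second probe gave -0.61. Cd209f, a C-type lectin of the DC-SIGN family, had ratios between 0.59 and 1.28 against -1.40 and -1.31, a difference of -2.40 ± 0.22 (limma adjusted p = 0.0179). Fut7, the fucosyltransferase that makes selectin ligands, had -2.13 ± 0.18, and its second probe gave -1.80. Dmwd had -2.45 ± 0.34, 1700003M07Rik -2.21 ± 0.23, LOC100045212 -2.17 ± 0.18 and Gm8956 -2.13 ± 0.14. Rab32, a small GTPase of lysosome-related organelles, had -1.88 ± 0.22, made of -1.33 in flox cells and 0.55 in control cells.

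Genes that mark monocytes and macrophages were called in both directions. Of 19 monocyte genes, 3 were lower and 1, Plac8, higher, against 0.589% and 0.545% of all genes. The median of the 19 was -0.16, and it was -0.007 with scaling between arrays. With 1 array left out, it ran from -0.38 to -0.04. These ends were without the flox array without tamoxifen of experiment 1 and without that of experiment 2. Klf2, a transcription factor of resting monocytes, had ratios of 0.03 and 0.33 in control cells without tamoxifen, 0.38 and 0.12 with it, 0.34 and 0.26 in flox cells without and -1.37 and -1.32 with tamoxifen. The 6 other arrays overlap and the flox arrays with tamoxifen are lower, by a difference of -1.71 ± 0.21 (limma adjusted p = 0.0296). Itgal, the integrin chain of LFA-1, had -1.34 ± 0.14, with a second probe at -1.36, and Treml4 had -1.52 ± 0.22.

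Of 34 macrophage genes, 3 were called higher and 2 lower, against 0.545% and 0.589% of all genes, with a median of 0.13. The higher ones were Clec7a, Gpnmb and Mpeg1, the pore-forming perforin-2, at 1.08 ± 0.15. A second probe of Mpeg1 gave 0.49, with an unadjusted limma p of 0.206. The lower ones were Marco, a scavenger receptor, at -1.52 ± 0.20, with 0.51 in control cells and -1.01 in flox cells, and Slamf9 at -1.20 ± 0.15, with -0.54 and -1.74. Of 24 C-type lectin receptors, Clec7a was called higher and Cd209f and Klra2 lower, the last at -1.85 ± 0.14 (limma adjusted p = 0.0115), and their median was -0.06. Of 13 MS4A and TMEM176 genes, Tmem176a was called lower at -1.30 ± 0.20 and 0 were higher, with a median of -0.38. Of 26 immediate early genes, Egr2 was called higher and Klf2 lower. For each of these lists the shares over all genes are the same 0.545% and 0.589%.

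Several metabolic lists lay to 1 side of 0 with 0 genes called by limma. The 26 genes of ATF4 and amino acid stress had a median of -0.52, with 22 below 0 and 12 lower at an unadjusted p below 0.05, against 7.86% of all genes. Their median effect was 0.19 in control cells and -0.27 in flox cells. Chac1, a glutathione-degrading enzyme of this response, had ratios of -2.41 and -3.09 in control cells without tamoxifen, -1.06 and -0.64 with it, -0.15 and 0.14 in flox cells without and -1.51 and -0.22 with tamoxifen. Its difference of -2.76 ± 0.57 was of the size of the largest called genes, but its spread left it short of the threshold (limma adjusted p = 0.0851). Psat1 and Asns, enzymes of serine and asparagine synthesis, had -1.12 ± 0.23 and -1.25 ± 0.28.

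The 36 genes of MYC and ribosome biogenesis had a median of -0.44, with 32 below 0, and with -0.73 in experiment 1 and -0.20 in experiment 2. At an unadjusted p below 0.05, 13 were lower and 1 higher, against 7.86% and 7.53% of all genes. Without the control array without tamoxifen of experiment 1 the median was -0.21, and without the flox array without tamoxifen of experiment 1 it was -0.28. Heatr1 and Polr1a, of ribosomal RNA transcription, had -0.73 ± 0.14 and -0.80 ± 0.18. The 24 genes of cholesterol synthesis had a median of -0.31, with 21 below 0 and 6 lower at an unadjusted p below 0.05, against the same 7.86%. Sqle, squalene epoxidase, had -0.95 ± 0.16 (limma adjusted p = 0.056). The 22 LXR targets and cholesterol efflux genes had a median of 0.24. Their effect in control cells was below 0 in 19 of 22 with a median of -0.23, and Abcg1, a cholesterol exporter, had 0.41 in flox cells and -0.58 in control cells. Nceh1, a cholesterol ester hydrolase, had 1.00 ± 0.17 (limma adjusted p = 0.0586).

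**Figure D4:**
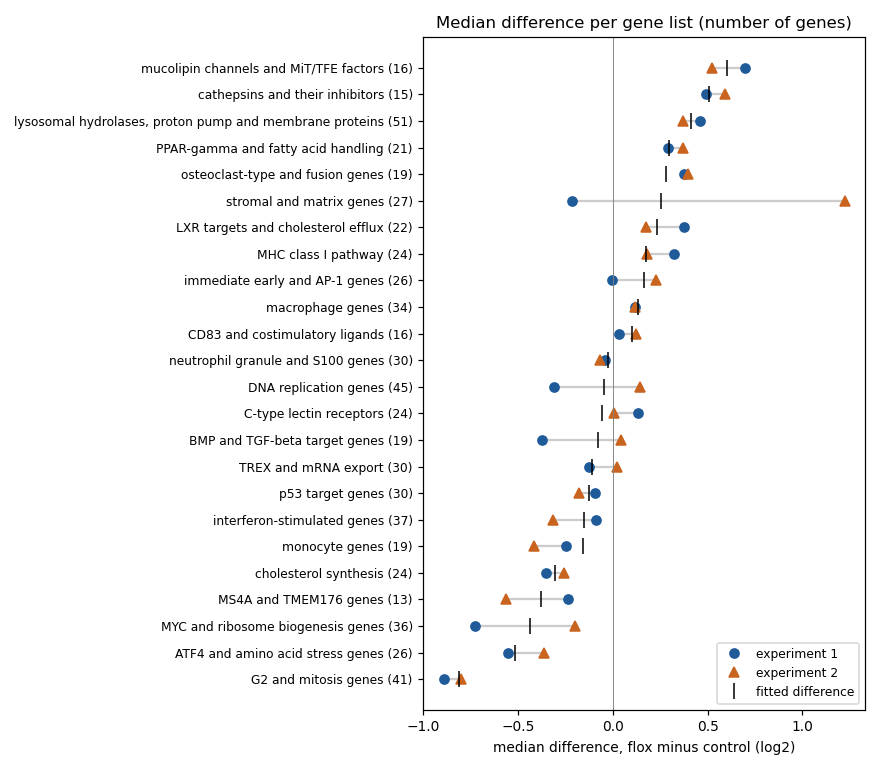
Median difference of tamoxifen effects, flox minus control (x axis, log2), over the genes of 24 lists (y axis, number of genes in brackets), with circles for experiment 1, triangles for experiment 2 and ticks for the fitted difference. Mitosis lies lowest and the mucolipin and MiT/TFE list highest with both experiments close together, while the stromal list lies at -0.21 in experiment 1 and 1.23 in experiment 2.

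Of 37 interferon-stimulated genes 0 were called by limma and 4 were lower at an unadjusted p below 0.05, against 7.86% of all genes. The median of the 37 was -0.15. Here both genotypes lay on the same side, with a median effect of -0.22 in control cells and -0.45 in flox cells. Of 19 BMP and TGF-beta target genes 0 were called. At an unadjusted limma p below 0.05, 2 were higher and 6 lower, against 7.53% and 7.86% of all genes. Id1, an inhibitor of helix-loop-helix factors, had the lowest fitted difference among the 19, -3.28 ± 0.90, with -4.38 in experiment 1 and -2.18 in experiment 2. On the 2 control arrays without tamoxifen its ratio was -0.21 and 4.56, so the experiments differed by more than the tamoxifen effects. Smad6 and Id3 had -2.24 ± 0.55 and -2.28 ± 0.60 and did not pass. The 27 remaining lists, of 8 to 38 genes each, include those of other cell types apart from neutrophil and stromal genes. They held 5 calls higher and 4 lower, with genes counted once per list, against 0.545% and 0.589% of all genes. Of these lists 18 had 0 calls, and the medians of the 27 lay between -0.28 and 0.40. Over the alternatives, the median took both signs for the lists of DNA replication (-0.24 to 0.20), interferon-stimulated (-0.51 to 0.05), macrophage, costimulatory, C-type lectin, neutrophil and stromal genes, and kept 1 sign for 17 others.

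Genes of other cell types were measured beside these results. Of 30 neutrophil granule and S100 genes 0 were called, and their median difference was -0.02. At an unadjusted limma p below 0.05, 1 was higher and 3 lower, against 7.53% and 7.86% of all genes. The summed day 3 level of the 30 genes, on the log2 scale, was 17.2 to 17.6 on 6 arrays. It was 18.3 and 18.4 on the flox arrays with tamoxifen. A sum weighs genes with strong signals most. By ratio to day 0, both flox arrays with tamoxifen lay above the 6 others in 2 of the 30 genes and below them in 8. The 6 neutrophil markers examined, among them Mpo and Ltf, were above background on all 8 arrays, with differences between -0.45 and 0.29. The group with the highest mean day 3 level was flox without tamoxifen for S100a9, Camp, Ltf and Mpo. For S100a8 it was flox with tamoxifen, and for Elane control with tamoxifen. The summed level of 27 stromal and matrix genes was 17.8 to 18.2 on 6 arrays and 18.7 and 18.9 on the flox arrays with tamoxifen, and that of 14 T and NK cell genes was 13.4 to 14.1 against 14.3 and 14.6. Of these 14, 8 to 10 were above background per array, and their median difference was 0.11. Their highest difference was that of Il7r, an interleukin receptor chain that is also on 2 other lists, at 2.68 ± 0.56 (limma adjusted p = 0.0874), and Cd3e, a chain of the T cell receptor complex, had 0.29 ± 0.15 (limma adjusted p = 0.441). The part of these cells in the results was not tested.

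The array of flox cells with tamoxifen in experiment 2 stood apart in stromal and matrix genes. The median ratio of the 27 genes was 0.13 on that array and between -0.83 and -0.40 on the 7 others, and the median difference was -0.21 in experiment 1 and 1.23 in experiment 2. Col1a1, a collagen of fibroblasts, had a difference of 1.06 ± 0.90, and 0 of the 27 genes were called by limma. At an unadjusted limma p below 0.05, 4 were higher and 2 lower, against 7.53% and 7.86% of all genes. Without that array the median of the stromal list was -0.20, that of the mitosis list -0.83 and that of the lysosomal list 0.39, with 44 of 51 above 0. Of the megakaryocyte, erythroid, B-lineage, T and NK, and mast cell and basophil lists, 0 genes were called. Erythroid Alas2 and Klf1 did not pass the filter on dim probes. Of 17 dendritic genes 1 was called higher, Cd83, and of 24 stem and progenitor genes 1, Cd93, against 0.545% of all genes. Cd93, a receptor that monocytes also carry, had 1.04 ± 0.15.

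Different probes of a gene mostly pointed the same way. Of the 204 called genes, 53 had at least 1 other probe that passed the filter, 63 probes in all. At an unadjusted limma p below 0.05, 45 of the 63 had the sign of the probe used and 1 had the opposite sign, and 8 had the opposite sign at any p. In 8 called genes, 7 of them higher, some group was not well above background on either of its arrays at day 3, and no fold is given for them.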

How the data were processed

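Cytoplasmic RNA of 8 samples was hybridised to 8 Agilent 2-colour mouse arrays, day 3 against day 0, with dyes inverted in experiment 2. Per the file headers, the authors scanned and extracted the spots with Agilent Feature Extraction 10.7.3.1, and the deposited mean signals and local backgrounds are intensity values on a linear scale. The deposited value table and the scanner ratio are log10 ratios of processed signals made by the authors' software, used here as alternatives. The deposited flags mark spots well above background, saturated or uneven.

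The intensities were corrected with normexp (offset 50) and normalised by loess within each array in limma 3.58.1 (R 4.3.3), and all log2 ratios were turned to day 3 over day 0. Of 39429 probes, 22455 were well above background on both arrays of at least 1 group in either channel. The probe with the highest mean signal stood for each of 17992 genes, of which 83 lack a value on at least 1 array. Symbols were updated through RefSeq for 26412 probes by accession, 3854 by symbol and 735 by synonym, and 8428 probes kept the name in the file. The fit held 4 group means and the experiment, which equals replicate number, dye direction and slide, and left 3 residual degrees of freedom. The tests were two-sided, with Benjamini-Hochberg adjustment over all genes. Per the labels, the replicate number is the biological experiment, and same-numbered arrays deviated together at r = 0.31 to 0.73. Between the arrays that share day 0 RNA it was 0.73 in control and 0.63 in flox cells, which the main fit does not model. The p-values rest on the spread left after the group means and the experiment term, pooled over genes by limma.

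Named are Thoc5, the 15 genes called higher and the 15 called lower with the largest change of 1 sign in both experiments, 8 called genes that moved more in control than in flox cells, taken by the size of the control change, and up to 4 genes per list by smallest p. Some genes that meet this rule are not reported here. The members and lists were chosen with earlier results of these data known. On simulated data for the difference (17909 genes, 50 changed per size), 2 were called at a log2 size of 0.5, 29 at 1, 50 at 2 and 50 at 3, with 7 false calls. The simulated noise was independent between arrays and genes. The real arrays share day 0 RNA, so these counts hold for the simulated setting only. Alternatives changed the background correction, normalisation, filter, probe rule, block for day 0 RNA, channel and arrays. Probe positions are on mm9, as the file headers give them. Promoter sequences are from RefSeq on GRCm38.p6.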

Additional observations from a re-analysis of the deposited data

Results flagged for a closer look

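The tamoxifen effect differed between the genotypes for 204 genes by limma's test of the difference itself (adjusted p below 0.05). The differences are on the log2 scale, flox minus control. For Thoc5 the difference was -2.43.

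Of the largest higher genes, the differences were Cd83 4.04, Mcoln3 3.36, C77080 2.77, Fabp4 2.65, Gm14461 2.64, Egr2 2.39, H2-M2 2.32, Atp6v0d2 2.24, Dio2 2.23, Pianp 2.14, Fam20c 2.10, Clec7a 2.02, Mctp1 2.00 and Anpep 1.97. All of these have the same sign in both experiments.

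Of the largest lower genes beside Thoc5, the differences were Mtus1 -2.74, Raver2 -2.55, Dmwd -2.45, Nrxn2 -2.41, Cd209f -2.40, 1700003M07Rik -2.21, LOC100045212 -2.17, Fut7 -2.13, Gm8956 -2.13, Sapcd2 -2.10, Cdkn3 -2.05, Ube2c -2.02, Ccnb2 -1.89 and Rab32 -1.88.

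In 15 called genes the effect in control cells exceeded that in flox cells, and the 8 with the largest effect in control cells had differences of N4bp3 1.48, Plac8 1.22, Gm6377 1.34, Gm5593 -1.50, Gm4870 -1.49, Cep55 -1.40, Troap -1.45 and Cenpa -1.47. Here the control arrays carry most of the value, and the effect in control cells alone passed limma's test for none of these 8 genes (997 of all genes had an unadjusted p below 0.05 there).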

How the results depend on the processing

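All 204 genes kept their sign in every alternative that measured them, 189 under the strict filter. The alternatives reuse the arrays that chose the genes. The number called for the difference was 22 with no replicate block, 1092 with the shared day 0 RNA as a fixed block and 807 as a random block. It was 350 with median centring in place of loess, 56 from the processed signals, 59 from the deposited value table and 604 from the day 3 channel alone. Leaving out 1 array gave 0 to 272, by limma with 1880 to 3359 genes at an unadjusted p below 0.05. A group left with 1 array is assumed to vary like the others. In flox cells the count was 468 with no replicate block, 3357 and 2890 with day 0 RNA as a fixed or random block, 4568 from the 4 arrays of the genotype alone and 474 at 2-fold or more, and 205 to 2366 with 1 array left out. In control cells it was 24 with median centring and 0 otherwise. The Thoc5 difference ran from -2.48 to -2.38 with 1 array left out. Camp, a neutrophil granule gene, turned to 0.10 with scaling between arrays (limma adjusted p = 0.924). The causes were not tested. Over 117 named genes and 2455 values, 1811 kept direction and side of the threshold, 522 lost and 121 gained a call, and 1 turned. Signal over background limits 8 of the 204 genes.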
